A study of Rattus norvegicus with 98 samples.

Results

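The bed nucleus of the stria terminalis (BNST) was examined by its 4 H3K27ac peak lists, those titled Sham-BNST and FT-BNST with replicate numbers 1 and 2. They are 4 of the 94 lists analysed here, which cover 25 rat brain regions. Adult male Long-Evans rats, aged 2 months, drank water with fluoxetine at 18 mg/kg body weight for 6 weeks (FT), and control animals drank water alone (Sham). Punches of frozen sections were pooled over several animals for each replicate, chromatin was immunoprecipitated with an antibody against H3K27ac, and the authors called peaks on each library separately. Sham and FT libraries of one replicate number were processed in parallel, and the punches of every region in a replicate were taken from shared animal pools. A p-value therefore measures only the spread between 2 pools per treatment, and in bulk punches a smaller share of a cell type cannot be told apart from less acetylation per cell.

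The BNST is a group of nuclei of the extended amygdala. It links the amygdala with hypothalamic and brainstem nuclei and is known for its part in sustained anxiety, stress responses and reward, and it is rich in GABAergic neurons and neuropeptides. It receives serotonergic fibres from the raphe, and fluoxetine blocks the serotonin transporter that clears the transmitter from those fibres. Acetylation of lysine 27 on histone H3 marks active enhancers and promoters, so a peak list is a map of the regulatory elements in use in the tissue. Peaks can be wider or higher because more nucleosomes or more cells carry the mark, and also because a library has more reads or a better enrichment.

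The label was checked by similarity, since gene markers could not be placed on Rn5 here. Similarity was the Jaccard index, the windows held by both lists divided by those held by either, with each list cut to its 26942 best-scoring peaks. Every BNST list had another BNST list as its nearest among all lists. The 2 FT lists had an index of 0.773 with each other and Sham replicate 1 had 0.707 and 0.709 with them. Sham replicate 2 stood apart, with 0.609 to Sham replicate 1, 0.572 to FT replicate 1 and 0.581 to FT replicate 2. Sham replicate 1 was thus more like the FT lists than like the other Sham list, and the main results are given also without Sham replicate 2. The nearest lists outside BNST were those of the medial septum (FT MS) for both FT lists, of the lateral hypothalamus (FT LH) for Sham replicate 1 and of the ventral tegmental area (Sham VTA) for Sham replicate 2. Their indices were 0.704 with FT replicate 1, 0.691 with FT replicate 2, 0.663 with Sham replicate 1 and 0.576 with Sham replicate 2. Lists of other regions were thus closer to both FT lists and to Sham replicate 1 than Sham replicate 2 was. Similarity therefore bore out the label only in part. The number of reads per library is unknown, because the lists hold none.

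Whether fluoxetine changed the extent of acetylated chromatin in BNST was asked first. Sham lists held 38333 and 26942 peaks and FT lists 48814 and 46580. Covered length was 61.0 and 40.8 Mb with Sham against 82.8 and 75.4 Mb with FT. The FT lists exceeded the Sham lists, with no overlap between the groups in either measure. The mean was 32637.5 ± 8055 peaks with Sham and 47697 ± 1580 with FT (SD, n = 2 libraries each), a log2 ratio of 0.55, and the covered length had a log2 ratio of 0.64 (exact permutation test, two-sided, p = 0.333 for both, the smallest that 2 against 2 libraries allow). More sequencing reads or a better enrichment, which the lists do not record, cannot be told apart from more acetylated sites. Left without Sham replicate 2, the log2 ratios were 0.32 and 0.38, and left without Sham replicate 1 they were 0.82 and 0.96. Median peak width was 1600 and 1500 bp with Sham and 1700 and 1600 bp with FT, so the groups overlapped (log2 ratio 0.09, exact permutation p = 0.667). Peaks of 3 kb or wider, a class of broad domains, numbered 607 and 363 with Sham and 1010 and 786 with FT. As a share of the longer FT lists the difference was smaller, at 1.58% and 1.35% with Sham against 2.07% and 1.69% with FT.

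**Figure D1:**
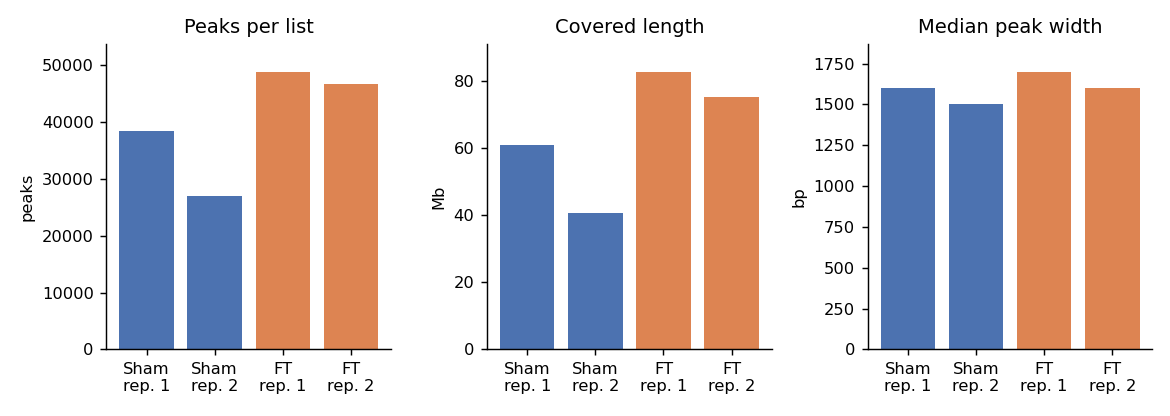
Peaks per list, covered length in Mb and median peak width in bp of the 4 BNST lists (bars, 1 per library, blue for Sham and orange for FT, axes from 0). Both FT lists exceeded both Sham lists in number (46580 and 48814 against 26942 and 38333) and in covered length, while the median widths of 1500 to 1700 bp overlapped.

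To ask where the lists differed, chromosomes were cut into 1 kb windows, each of which was occupied in a list whose peaks covered 50% of it or more. Of 98072 windows occupied in at least 1 list, 35113 were occupied in all 4. A window separated the treatments when both lists of one treatment held it and neither list of the other did. In the full lists 12520 windows (12.8% of those occupied) were held by both FT lists alone, called gained here, and 221 (0.225%) by both Sham lists alone, called higher in Sham. There are 3 groupings of 4 libraries into 2 against 2, and the other 2 gave fewer windows. Grouped by replicate number, 3395 windows separated the pairs, and 2033 did so in the crossed grouping of Sham replicate 2 and FT replicate 1 against Sham replicate 1 and FT replicate 2. The treatment count was above the mean of the others by 2.23 on the log2 scale (exact permutation test over the 3 groupings, one-sided, p = 0.333, the smallest possible). Without FT replicate 1 the ratio was 0.48, and Sham replicate 2 alone then stood apart by slightly more windows (20635) than FT replicate 2 (20571).

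Because FT lists were longer, each list was then cut by maxScore, the highest value of the authors' detection filter within a peak, to the 26942 peaks of the shortest list. Of 70300 occupied windows 32358 were now shared by all 4 lists. FT was higher at 5254 windows (7.47%) and Sham at 683 (0.972%), so 88.5% of the 5937 separating windows were higher in FT. The replicate grouping gave 2337 windows and the crossed grouping 1948, a log2 ratio of 1.47 for treatment over their mean (exact permutation, one-sided, p = 0.333). The other groupings were uneven too, as replicate 1 lists held 81.4% of the windows that separated the replicate numbers. Of the 5254 windows gained with FT, 4166 (79.3%) also separated in the full lists, and Sham replicate 1 held the remaining 1088 among its lower-scoring peaks. Of the 683 windows higher in Sham, 96 (14.1%) also separated in the full lists, and the FT lists held 532 and 491 of the 683 among their lower-scoring peaks. Most windows higher in Sham were therefore acetylated in FT as well, but ranked lower there.

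**Figure D2:**
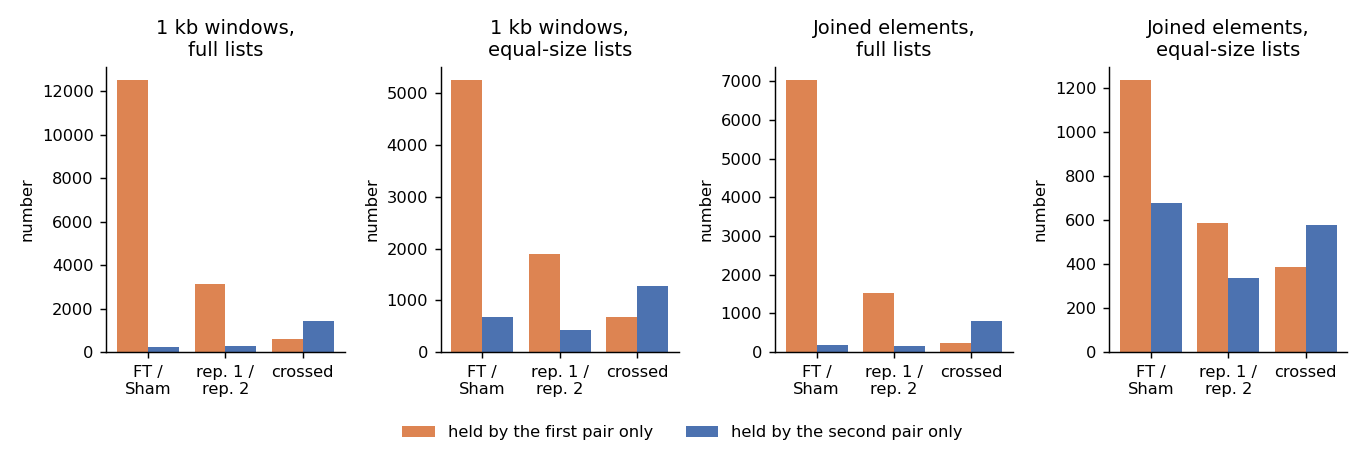
Numbers of 1 kb windows and of joined elements held by both lists of one pair and neither of the other, for the 3 groupings of the 4 BNST lists, on full and equal-size lists (orange, held by the first pair only, FT, replicate 1, or Sham 2 with FT 1; blue, held by the second pair only; each panel has its own linear axis from 0). Treatment gave the tallest bar in each panel, from 12520 windows in full lists to 1236 elements in equal-size lists.

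The weight of a single list was measured by leaving each out in turn and setting every remaining list against the other pair. On equal-size lists without FT replicate 1, 10395 windows set FT replicate 2 apart from the 2 Sham lists, but 14759 set Sham replicate 2 apart from the others. Without FT replicate 2 the counts were 11394 for FT replicate 1 and 15148 for Sham replicate 2. Sham replicate 2 thus differed from the other Sham list and an FT list by more windows than an FT list differed from the 2 Sham lists. Without Sham replicate 2 the FT pair was set apart from Sham replicate 1 by 10931 windows, against 7405 and 6795 when an FT list stood alone (log2 ratio 0.62), and 62.6% of the 10931 were higher in FT. Without Sham replicate 1 the log2 ratio was 1.40 and the share 76.2%. In both shares a window higher in FT needed both FT lists and a window higher in Sham only 1 list, so they are not like for like.

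The direction depended on how the lists were brought to one size. Lists of equal peak number still covered 49.9 and 40.8 Mb with Sham and 56.6 and 54.0 Mb with FT. When they were cut to equal covered length instead, at 40.8 Mb, 2473 windows were gained against 1679 higher in Sham (59.6% gained), and treatment still gave more windows than the replicate and crossed groupings, at 4152 against 1596 and 1515. With each peak of the equal-number lists reduced to its centre, 1912 were gained against 1149 higher in Sham (62.5% gained). Centres at equal covered length, a choice made after seeing the data, turned the direction, with 659 windows higher in FT and 1626 in Sham (28.8% in FT). At this last setting the Sham lists held 20362 and 26942 peaks and the FT lists 18061 and 18961. The surplus of FT windows at equal peak number thus went with wider FT peaks, and the setting decided its size and, once, its direction.

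**Figure D3:**
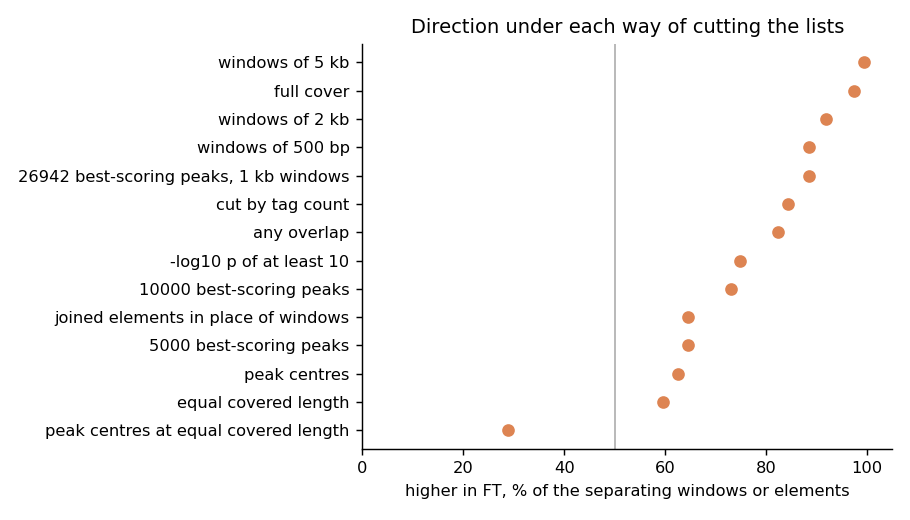
Share of separating windows or joined elements that were higher in FT, in percent, for 14 ways of cutting or scoring the 4 BNST lists at equal size (points, 1 per setting; the line marks 50%). The share ran from 99.4% with windows of 5 kb down to 59.6% at equal covered length, and fell to 28.8% only for peak centres at equal covered length.

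Elements were formed next by joining overlapping peaks of the 4 lists, which separates the presence of an element from its width. Full lists gave 58329 elements, of which 23228 had a peak in every list. Both FT lists and no Sham list had a peak in 7028 elements (12%), and both Sham lists and no FT list in 172 (0.295%). In equal-size lists 1236 elements (3.47% of 35644) were held by FT alone and 677 (1.90%) by Sham alone. The replicate and crossed groupings separated 923 and 966 elements, against 1913 for treatment. At equal peak number 64.6% of the elements held by 1 treatment were thus FT elements, below the 88.5% of windows. With either Sham list left out, a Sham element needed a peak in 1 list and an FT element in both, so the counts are not like for like. Equal-size lists then gave 2064 FT and 2404 Sham elements without Sham replicate 2, and 3710 and 4472 without Sham replicate 1. Sham elements were the more numerous in both cases, but the unequal requirement favours them, so no direction is read from these counts. Full lists gave 7907 and 2385 without Sham replicate 2, and 16910 and 1960 without Sham replicate 1.

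Elements held by 1 treatment lay near the lower end of the scores of their lists. The 7028 FT elements had a median maxScore of 73.4 in FT replicate 1 and 60.0 in FT replicate 2, where the lists had medians of 112 and 92.8 and lowest values of 54.7 and 46.6. The 172 Sham elements had medians of 50.9 and 49.7 in lists with medians of 88.1 and 72.1. The elements of 1 treatment did not reach the top of the lists. The highest maxScore among FT elements was 168 in replicate 1 and 156 in replicate 2, in lists that reached 1441 and 1350, and among Sham elements it was 94.8 and 70.7. Ordered after the values were seen by the lower of the scores in the 2 lists, the leading FT element was on chromosome X at 72844725 to 72847024 (Rn5), with maxScore 153 and 156 and peaks of 1900 and 2300 bp. The leading Sham element, on chromosome 17 at 25813415 to 25814714, had maxScore 78.5 and 66.1 and peaks of 1300 and 1000 bp.

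Width was compared in the 23228 shared elements, where presence does not differ. The mean covered length of an element was 1899 bp in Sham replicate 1, 1614 bp in Sham replicate 2, 2124 bp in FT replicate 1 and 2025 bp in FT replicate 2. Both FT lists had wider elements than both Sham lists, by a median log2 ratio of 0.22, or 1.16-fold (exact permutation over the 3 groupings, two-sided, p = 0.333). Pairs grouped by replicate number differed by 0.12 and the crossed pairs by -0.06. Both FT lists were wider than both Sham lists in 12765 elements (55.0%), and both were narrower in 66 (0.284%). Without Sham replicate 2 the median log2 ratio was 0.10 and without Sham replicate 1 it was 0.32, so its size depended on Sham replicate 2. On equal-size lists the ratio was 0.20.

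**Figure D4:**
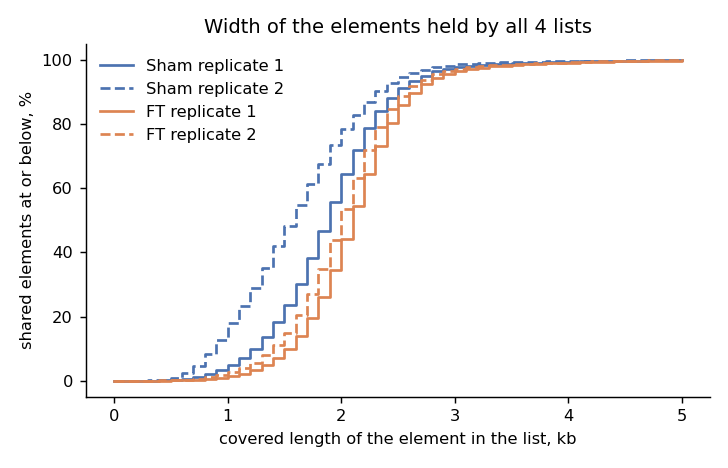
Cumulative share of the 23228 elements held by all 4 lists, in percent, against their covered length in each list, in kb (blue for Sham, orange for FT, solid for replicate 1, dashed for replicate 2). The FT curves lie to the right of the Sham curves, with medians of 2100 and 2000 bp against 1900 and 1600 bp, and Sham replicate 2 is the farthest from the others.

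Most windows gained with FT lay in elements that Sham lists also held, as did most windows of the FT lists. Of the 5254 gained windows, 3141 (59.8%) adjoined a window occupied in an equal-size Sham list, close to the 54.8% among windows of an FT list and no Sham list and below the 79.8% among all windows of an FT list. Peaks of a Sham list covered a part of the window, short of the 50% limit, at 3144 (59.8%). In the full lists, 4709 (89.6%) lay in an element with a Sham peak, and 545 (10.4%) in an element with none. The share with a Sham peak was 83.5% for windows of an FT list and no Sham list and 96.4% for all windows of an FT list. Without Sham replicate 2, 50.9% of the 6839 gained windows adjoined a Sham window and 88.6% lay in an element with a Sham peak. Of the 683 windows higher in Sham, 76 (11.1%) adjoined a window of an equal-size FT list, against 14.5% of windows of a Sham list and no FT list and 83.7% of all windows of a Sham list. An FT peak of the full lists was found in the element of 670 (98.1%), against 75.7% and 96.6%. On full lists the picture for gained windows shifted: 4886 of 12520 (39.0%) adjoined a Sham window, 6866 (54.8%) lay in elements with no Sham peak, and 5564 (44.4%) were more than 5 kb from any Sham peak. The shares therefore turned on whether the longer FT lists were cut. Gained windows formed 4449 loci, of which 3662 (82.3%) were single windows and 18 spanned 3 windows, the longest run.

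Gained windows ranked below the shared ones in their own lists. Percentiles are of the best peak over the window in its own full list, where the cut to equal size fell at the 44.8 and 42.2 percentiles of the FT lists and the 29.7 percentile of Sham replicate 1. The 5254 gained windows had a median maxScore percentile of 60.8 in FT replicate 1 and 59.5 in FT replicate 2, against 84.0 and 83.1 for the windows occupied in all 4 lists. On full lists the gained windows had medians of 39.3 and 37.6, and without Sham replicate 2 on equal-size lists 61.2 and 59.7. Their normalised tag count, a rounded score of the reads in a peak, stood at the 56.2 and 49.3 percentiles. The 683 windows higher in Sham had median maxScore percentiles of 41.8 and 27.4 in the Sham lists, where the windows shared by all 4 stood at 79.6 and 71.3. Peaks over the gained windows were 2000 and 1900 bp wide in the median, and those over windows higher in Sham 1400 and 1100 bp. Changed windows thus ranked below the shared ones in both directions. The lists were cut by maxScore before the windows were picked, so this order is expected from the choice. Windows of the replicate and crossed groupings were not ranked beside them, and no conclusion is drawn.

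Loci were named when their windows separated the treatments in the same direction on full and equal-size lists, ordered by length and then by tag count rank. There were 3874 such loci with FT higher and 95 with Sham higher. The first 5 with FT higher spanned 3 windows each and held no Sham peak. The locus on chromosome 20 at 22309001 to 22312000 was covered for 2600 bp in each FT list, with maxScore 146 and 102 and tag counts of 6 and 5, and the nearest Sham peak lay 13480 bp away. The locus on chromosome 8 at 92454001 to 92457000 was covered for 2100 and 2200 bp, with maxScore 110 and 107, and no Sham peak lay within 263217 bp. The other 3 were on chromosome 1 at 232916001 to 232919000, on chromosome 6 at 106376001 to 106379000 and on chromosome 6 at 141319001 to 141322000. In those 3 loci FT peaks covered 2200 to 2500 bp, and the nearest Sham peaks lay 7533 to 13963 bp away. All 5 were domains of middle rank, with mean tag percentiles of 42.7 to 68.1 in the FT lists. The mark was found at them in Sham lists of other regions, from 10 regions for the locus on chromosome 20 to 23 for that on chromosome 8.

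The next 5 loci with FT higher spanned 2 windows and had high tag counts. The locus on chromosome 3 at 155161001 to 155163000 was covered for 1799 and 1663 bp with FT and for 399 and 349 bp with Sham. Its widest peak was 4400 and 4300 bp with FT against 2800 and 2600 bp with Sham, and its tag counts were 16 and 14 against 14 and 8. The locus on chromosome 6 at 153972001 to 153974000 behaved alike, with widest peaks of 4200 bp in both FT lists and 2900 and 2500 bp in the Sham lists. On chromosome 3 at 88040001 to 88042000, on chromosome 18 at 28348001 to 28350000 and on chromosome 10 at 38663001 to 38665000, Sham replicate 1 held a peak of 300, 800 and 600 bp and Sham replicate 2 held none. Of these 5 loci, 2 thus had a peak in every list that was wider with FT, and 3 had a short peak in 1 Sham list.

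Among the 10 named loci with Sham higher, a single locus lacked FT peaks. It lay on chromosome 15 at 68683001 to 68685000, was covered for 1300 and 1600 bp in the Sham lists with maxScore 64.7 and 67.9 and a tag count of 2 in each, and the nearest FT peak was 1321296 bp away. The mark was found there in Sham lists of 18 other regions. Its −log10 p was 7.04 and 8.19, and with peaks of at least 10 the locus was lost. The other 9 were single windows at the edges of strong elements that all 4 lists held. On chromosome 19 at 62506001 to 62507000, Sham peaks covered 601 bp in each list and FT peaks 465 and 385 bp, but maxScore was higher with FT (774 and 645) than with Sham (630 and 456). On chromosome 13 at 58039001 to 58040000 the cover was 535 and 512 bp against 433 and 446 bp, close to the limit of 50% of the window on both sides. The window on chromosome 19 at 41769001 to 41770000 was fully covered in both Sham lists, at 1000 bp, and covered for 465 and 315 bp with FT. Its maxScore was 142 and 359 with FT and 236 and 99.3 with Sham, so the groups overlapped, as they did at the window on chromosome 13 at 58039001, with 603 and 501 against 517 and 326. In the remaining 7 of the 9 windows maxScore was higher in both FT lists than in both Sham lists, although the windows were counted as higher in Sham.

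Of the 3874 loci gained with FT, 7 had no window occupied in any list of another region, and none of the 95 loci higher in Sham did. The first 5 by the naming order were single windows on chromosome 12 at 43763001 to 43764000, on chromosome 17 at 80781001 to 80782000, on chromosome 10 at 39225001 to 39226000, on chromosome 2 at 52260001 to 52261000 and on chromosome 13 at 82267001 to 82268000. Each was covered for 501 to 799 bp in the FT lists. Sham peaks reached into 4 of the 5 in both Sham lists and into the fifth in Sham replicate 2 alone. On chromosome 12, for example, the peak was 1900 bp wide in both FT lists and 1500 and 1400 bp in the Sham lists. These windows were edges of elements that at least 1 Sham list also held.

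The heights of the 23228 shared elements were compared by maxScore and by the normalised tag count. Median maxScore was 134 and 80.5 with Sham and 212 and 170 with FT. Both FT values were above both Sham values in 19133 elements (82.4%) and below them in 4 (0.0172%). Tag counts were whole numbers with medians of 5 and 4 with Sham and 7 and 5 with FT, and both FT values were above both Sham values in 14826 elements (63.8%) and below in 8 (0.0344%). Set against Sham replicate 1 alone, both FT values were above in 82.8% of elements by maxScore and 64.8% by tag count. As values stood in the lists, most elements were thus higher with FT, and the scale of either score depends on the library. Named after the values were seen, the 4 elements with lower maxScore in both FT lists were on chromosome 5 at 159459267 to 159460567, on chromosome 9 at 61183921 to 61185407, on chromosome 11 at 93517424 to 93518706 and on chromosome 18 at 36702162 to 36703567. The last had maxScore 129 and 81.2 with Sham and 73.4 and 57.8 with FT, and was covered for 1400 and 1100 bp with Sham and 800 bp in each FT list. Of the 8 elements with lower tag counts, 5 had 2 or 3 peaks in each Sham list where the FT lists had 1 joined peak.

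After quantile normalisation, limma called 360 shared elements with a higher tag count in FT (1.55% of 23228) and 483 with a lower one (2.08%) at a Benjamini-Hochberg adjusted p under 0.05. In the deposited tag counts, both FT values were above both Sham values in all 360 called higher. Of the 483 called lower, both FT values were below both Sham values in 2, and the groups overlapped in 481. With the replicate number as a block limma called 0 in either direction, with 1187 higher and 2219 lower at an unadjusted p under 0.05. Without normalisation it called 1202 higher and 3 lower, and after median centring 0 (1545 higher and 214 lower unadjusted), so the count and the direction followed the scaling. Many called elements had ties: in 350 of the 360 and 471 of the 483 the 2 replicates of each treatment agreed within 0.01 on the log2 scale, where the deposited tag counts were whole numbers. Over all shared elements 1968 (8.47%) agreed so closely. The same fit called 0 elements for the replicate grouping and 0 for the crossed one, with 276 higher and 811 lower, and 461 higher and 1084 lower, at an unadjusted p under 0.05. On maxScore, which was given to 2 decimals, limma with the same normalisation called 0 elements (1407 higher and 1226 lower unadjusted). Nothing about single elements is read from these calls.

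The elements with the lowest p show what was called. In FT the 4 leading elements were on chromosome 4 at 57747336 to 57750035, on chromosome 5 at 174196455 to 174198376, on chromosome 12 at 50598207 to 50602206 and on chromosome X at 70089640 to 70092039. All 4 had the same tag counts, 5 and 4 with Sham and 11 and 9 with FT, and so the same log2 difference of 0.49 ± 0.01 (SE) after normalisation, with an adjusted p of 0.0240 by limma. The fifth, on chromosome 1 at 142185038 to 142187652, had 5 and 4 against 10 and 8, and per covered kb its log2 difference was -0.43. Among elements called lower, that on chromosome 2 at 134264102 to 134265901 had tag counts of 5 and 4 with Sham and 4 and 3 with FT, a normalised log2 difference of -0.60 ± 0.02 (SE) and an adjusted p of 0.0240 by limma. Its maxScore was 241 and 151 with Sham and 161 and 144 with FT, so it was lower with FT than in Sham replicate 1 even before scaling. The elements on chromosome 4 at 140275093 to 140277635 and on chromosome 10 at 35167402 to 35169251 were called lower at tag counts of 7 and 5 with Sham and 7 and 6 with FT, and without normalisation their log2 difference was 0.11 in the other direction. The last 2, on chromosome 17 at 15553315 to 15558214 and on chromosome 5 at 169800467 to 169805476, had Sham tag counts of 30 and 18 and of 21 and 13 against FT counts of 19 and 16 and of 13 and 11. These are sums over the peaks of an element, and with the highest tag count of a peak neither was called by limma (log2 differences of -0.06 and -0.15, adjusted p of 0.855 and 0.438).

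Ranks within a list do not depend on its scale, so the percentile of each shared element's maxScore among the 23228 was also compared, a measure added after the data were seen. Both FT percentiles exceeded both Sham percentiles by over 10 points in 1041 elements, and both Sham percentiles exceeded both FT percentiles by as much in 929. Grouped by replicate number, 565 elements were separated by over 10 points, and 643 in the crossed grouping, so treatment had a log2 ratio of 1.71 over their mean (exact permutation, one-sided, p = 0.333). With a gap of over 20 points the counts were 337 for treatment, of which 214 ranked higher in FT, against 36 and 40. On ranks of the tag count, 1452 elements were separated by treatment against 686 and 557. Percentiles have the same mean in every list, so rises in rank are offset by falls in sum. The number of elements past a gap in each direction is not fixed by this. Sham replicate 2 bore on this result too: without FT replicate 1 it stood apart in 6219 elements, against 4135 for FT replicate 2, and without FT replicate 2 in 6109, against 3592 for FT replicate 1. Without Sham replicate 2 the FT pair was set apart from Sham replicate 1 in 4422 elements, against 1916 and 2274 when an FT list stood alone (log2 ratio 1.08).

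The elements with the widest gaps in rank are given as a description. On chromosome 14 at 5327708 to 5330213 the maxScore percentile was 9.08 and 11.9 with Sham and 56.5 and 58.8 with FT, and the element was covered for 1300 and 1000 bp with Sham and 2200 and 2300 bp with FT. On chromosome 11 at 62376177 to 62378406 the percentile was 18.5 and 20.2 with Sham and 66.7 and 64.6 with FT. On chromosome 3 at 160503402 to 160505837 it was 9.63 and 0.458 with Sham and 51.8 and 52.4 with FT. In the opposite direction the element on chromosome 18 at 36702162 to 36703567, the last of the 4 named for lower maxScore, went from 47.8 and 50.6 with Sham to 1.72 and 1.80 with FT. The element on chromosome 2 at 134264102 to 134265901, also named above, went from 79.6 and 81.8 with Sham to 32.0 and 39.6 with FT. In each of these 5 elements the replicates of a treatment lay within 10 points of each other, which the choice by widest gap favours.

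Changed windows were spread over the genome. On equal-size lists the share of occupied windows gained with FT ran from 6.50% on chromosome 4 to 9.11% on chromosome 16, and the share higher in Sham from 0.659% on chromosome 10 to 1.48% on chromosome 13. Of 2586 bins of 1 Mb with an occupied window, 1597 held a gained window and 505 a window higher in Sham. The bin with the highest number of gained windows, on chromosome 7 at 12000001 to 13000000, held 19 of 149 occupied windows (12.8%). By share it was below others, such as chromosome 1 at 142000001 to 143000000 with 16 of 96 (16.7%). The first megabase of chromosome 1 stood apart in the other direction, with 9 of 23 windows (39.1%) higher in Sham and 0 gained. In the full lists it held 20 and 16 peaks with Sham and 7 and 13 with FT, so here the longer FT lists had fewer peaks than either Sham list. Most of these peaks were weak, with median maxScore of 53.2 to 64.3 in the 4 lists. After the cut to equal size, 10 and 16 Sham peaks were left but 1 in each FT list. The highest maxScore in that megabase was 160 and 76.2 with Sham and 169 and 135 with FT, so the groups overlapped.

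Finally, the changed windows were looked up in the 90 lists of the 24 other regions. Of the 5254 windows gained with FT in BNST, 5182 (98.6%) were occupied in a Sham list of at least 1 other region, as were 677 (99.1%) of the 683 windows higher in Sham and 97.9% of all windows occupied in BNST. The median gained window was occupied in Sham lists of 12 other regions, as was the median window higher in Sham, against 23 for windows shared by all 4 BNST lists and 18 for all windows. Only 7 gained windows and 0 of those higher in Sham were found in no list of another region, and 65 gained windows were found elsewhere in FT lists but not in Sham lists. The windows that separated the replicate numbers (98.5%) and the crossed pairs (98.3%) were alike, also with a median of 12 regions, so neither value set the gained windows apart. With the other lists cut to at most 26942 peaks, the medians were 10 regions for gained windows and 6 for windows higher in Sham.

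With all other lists cut to at most 26942 peaks, the gained windows were also occupied more often in FT than in Sham lists of other regions. The mean over the 23 regions without the habenula (HB) was 34.7% in Sham and 51.1% in FT lists, against 54.2% and 61.8% for all BNST windows. FT lists held more of the gained windows in 22 of these 23 regions, and more of all BNST windows in 20. Without Sham replicate 2 the gained windows were at 36.4% and 51.8%. The single Sham list of HB held 0.849% of all BNST windows, far below the other regions, and is left out of these means. Over all lists of other regions, HB included, the gained windows went from 33.4% of Sham to 50.9% of FT lists. Windows of the replicate grouping also rose, from 30.9% to 40.7%, and those of the crossed grouping from 30.8% to 38.5%. The largest differences among regions with 2 lists per treatment were in the medial septum (MS, 17.9% to 59.3%), the prelimbic cortex (PLC, 15.7% to 50.8%) and the infralimbic cortex (ILC, 17.8% to 50%). The insular cortex (45.6% to 47.2%) and the ventral dentate gyrus (venDG, 44.6% to 42.4%) had the smallest. All BNST windows differed between the lists of these regions too. They went from 49.0% to 69.9% in MS, 32.4% to 56.4% in PLC and 36.9% to 58.4% in ILC. In the insular cortex they went from 54.7% to 55.4% and in venDG from 58.6% to 55.0%. Of the 5254 gained windows, 1365 (26.0%) separated the treatments the same way in none of the 20 other regions with 4 lists, against 58.1% of all BNST windows, and 296 (5.63%) did so in 5 or more, against 1.47%. Windows higher in Sham were held by 24.2% of Sham and 21.0% of FT lists of the same 23 regions. The direction followed the cut, since 38.9% of the full Sham lists and 50.5% of the full FT lists of all other regions held these windows. Their largest differences were in the raphe (45.5% to 28.3%) and the VTA (45.5% to 30.2%). Of the 683, 416 (60.9%) separated in the same direction in no other region, against 86.3% of all BNST windows. In both directions all BNST windows include those shared by all 4 lists, which were occupied in more regions, so this background is not like for like. Windows of the replicate and crossed groupings were not compared in this way. Since regions of a replicate shared animals, these values describe the pools and were not tested.

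**Figure D5:**
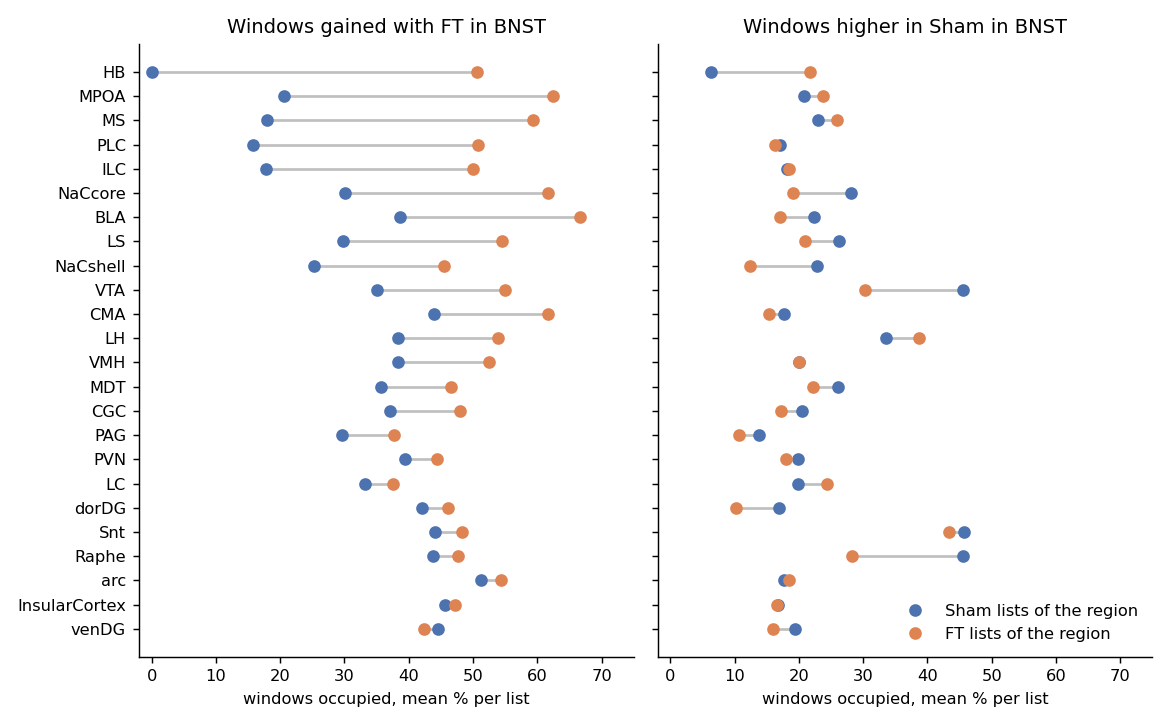
Percent of the 5254 windows gained with FT in BNST (left) and of the 683 windows higher in Sham in BNST (right) that were occupied in the lists of each other region, as a mean over its Sham lists (blue) and its FT lists (orange), all cut to at most 26942 peaks. FT points lie to the right of Sham points in 23 of 24 regions on the left, the exception being venDG, and on the right the widest gaps with Sham to the right are those of the raphe and the VTA.

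Among the 21 regions with 2 lists per treatment, BNST had the fifth largest log2 ratio of peak number and of covered length on full lists. For equal-size lists each region was cut to its own shortest list. Its log2 ratio of separating windows was seventh on full lists and eighth on equal-size lists, and the FT share of those windows was second on full lists and sixth on equal-size lists. On full lists its ratio of median peak widths was fifteenth. On equal-size lists the log2 ratio ran from -0.48 in venDG to 3.15 in PLC, with 1.47 in BNST, 1.40 in the VTA and 1.95 in the basolateral amygdala (BLA). No test was made between regions, so the order of such neighbours is a description.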

How the data were processed

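H3K27ac ChIP-seq peak lists, 1 per library, were analysed, and the 4 BNST lists were those of Sham and FT, 2 libraries each. Per the submitters' processing notes, reads were aligned with BWA to rn5. The authors called peaks with DFilter, whose version is not given in the sources used here. The deposited lists give peak positions, maxScore and a normalised tag count (scores, the latter in whole numbers with its normalisation not stated), a −log10 p-value capped at 200 by the authors' caller, and a false discovery rate in percent, deposited as 0 for all peaks. Reads per library are unknown, so no counting interval was given. In 2 lists outside BNST, 1019 peaks off the main chromosomes were left out, and 4 input libraries were not used.

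Windows of 1 kb, joined elements and loci were computed from the lists on Rn5 (1-based, with starts read as counted from 0). Exact permutation tests enumerated the 3 groupings of 4 libraries. Tag counts were compared on log2(value + 1) after quantile normalisation with limma (version 3.58.1, R 4.3.3, two-sided, Benjamini-Hochberg adjusted p under 0.05) over the elements with a peak in all 4 lists. Python 3.11.15, numpy 2.4.6, pandas 2.3.3 and scipy 1.17.1 were used. On simulated data, planted windows and changes were recovered, but rounding to whole numbers made limma call elements that had not been changed.

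Loci were named in order of length, then mean tag percentile, then position (the first 10 in each direction, and the first 5 found in no list of another region), and elements by the 5 lowest p-values in each direction. The region, lists and rules were chosen with earlier results of these data known. The study processed libraries of one replicate number in parallel, which pairs them; deviations of same-numbered libraries correlated by -0.03 in tag count and -0.07 in maxScore over the shared elements. Alternatives covered window size, cover, list cutting, normalisation, single replicates and the replicate block. No gene annotation on Rn5 was used, so loci carry coordinates alone.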

Additional observations from a re-analysis of the deposited data

How the results depend on the processing

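Peak number, covered length, median width, element width and the separating windows of full lists kept their direction under every alternative run, with log2 ratios of 0.32 to 0.82, 0.38 to 0.96, 0.04 to 0.14, 0.10 to 0.32 and 0.48 to 3.01. On equal-size lists the log2 ratio of separating windows ran from -0.0875 to 1.40 when a replicate was left out, and was lowest without FT replicate 1. Treatment gave the most windows in 15 of 17 settings on equal-size lists and 10 of 11 on full lists. For ranks apart by over 10 points, a result added after seeing the data, leaving out FT replicate 1 gave -0.16 and leaving out FT replicate 2 gave -0.36, and ran up to 1.77 when a replicate was left out.

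Of separating windows on equal-size lists 88.5% were gained with FT, and this share was 99.4% with 5 kb windows, 97.3% with full cover, 91.9% with 2 kb windows, 84.3% when cut by tag count, 82.4% with any overlap, 74.8% with a −log10 p of at least 10, 73.1% and 64.6% with 10000 and 5000 peaks, 59.6% at equal covered length and 62.5% with peak centres. It was 62.6% to 89.95% when a replicate was left out. Choices made after seeing the data gave 64.6% for joined elements and 28.8% for centres at equal covered length. Values of elements, positions, ranks and other regions without Sham replicate 2 were also added then.

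The share of gained windows adjoining a Sham window (59.8%) was 39.0% on full lists, 21.4% and 1.92% with 2 and 5 kb windows, 46.7% with 10000 peaks and 66.4% within 5 windows. The share of separating windows found in a Sham list of another region (98.7%) was 97.2% on full lists, 95.4% with 5 kb windows, 99.5% with 10000 peaks, 96.2% in at least 2 regions and 97.6% with the other lists cut.

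The 843 limma calls on tag counts became 0 after median centring, per covered kb, with a peak in at least 2 lists, and in the upper 50% by mean, and ran from 0 to 7131 when a replicate was left out. The lone library of an arm was then assumed to vary like the others. The elements on chromosome 17 at 15553315 and chromosome 5 at 169800467 lost their calls with the highest tag count of a peak. On maxScore, added after seeing the data, limma called 0 with and without quantile normalisation. The element on chromosome 1 at 142185038 turned to -0.43 per covered kb, and those on chromosome 4 at 140275093 and chromosome 10 at 35167402 to 0.11 without normalisation.

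With the replicate number as a block, the log2 ratios were 0.57 for peak number, 0.66 for covered length, 0.09 for median width, 0.22 for element width, 2.65 and 1.61 for windows of full and equal-size lists and 1.62 for ranks (exact permutation over 2 groupings allows no p under 0.5). The share higher in FT stayed 88.5%. The block left 0 tag count calls and 10 on maxScore. Reads per library are unknown, and 2 pools per treatment limit every test.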

Other observations

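With windows of 5 kb on equal-size lists, 3 windows were higher in Sham and 520 in FT. The 3 lay on chromosome 2 at 11745001 to 11750000, on chromosome 6 at 145230001 to 145235000 and on chromosome 13 at 104245001 to 104250000. On full lists only that on chromosome 13 stayed higher in Sham, with 2535 and 2512 bp covered against 2433 and 2446 bp with FT. Both sides were close to the limit of cover for an occupied window. On chromosome 2 the full FT lists covered 2883 and 2899 bp, above that limit, and the Sham lists 3000 and 3100 bp. On chromosome 6 the FT lists covered 2400 and 2666 bp, with FT replicate 2 above the limit, and the Sham lists 2767 and 2917 bp. On ranks of the tag count apart by over 20 points, 300 shared elements ranked higher in FT and 20 in Sham, against 12 elements in all for the replicate grouping and 29 for the crossed one. Tag counts of shared elements took only 31 to 51 distinct values per list, so these ranks moved in tied steps. At over 10 points 703 ranked higher in FT and 749 in Sham, and the replicate grouping gave 551 for replicate 1 and 135 for replicate 2.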
